A study of Mus musculus with 8 samples.

Results

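ATP-binding cassette (ABC) proteins bind and hydrolyze ATP, and most of them use this energy to move lipids, peptides, heme, drugs or conjugated anions across a membrane. Subfamilies A to D and G hold transporters of the plasma membrane, lysosome, peroxisome and mitochondrion, while subfamilies E and F have no membrane-spanning part and act on ribosomes and translation. In bone marrow, drug efflux pumps of the family such as Abcg2 and Abcb1a are used to recognize hematopoietic stem cells by dye exclusion.

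The family was described here in mesenchymal stem/progenitor cells (MSPCs), the stromal cells of bone marrow that supply hematopoietic stem cells with CXCL12 and stem cell factor. Members were chosen by symbol: protein-coding mouse genes named Abc, a letter from a to g, a number and an optional letter. There were 50 such genes among the 52636 in the count table, with 16 in subfamily A, 10 in B, 10 in C, 4 in D, 1 in E, 3 in F and 6 in G. The rule used no count, but the family was proposed with earlier results of these data known, so the genotype differences of its members are a description and not independent evidence.

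MSPCs of C57BL/6 mice were sorted for PDGFRα and for GFP, which is expressed from the Kitl locus, with exclusion of cells bearing CD45, Ter119, CD31 or CD144 (blood and endothelial cells), and their polyA RNA was sequenced. There were 4 Flk2-cre+ Cxcr4fl/+ mice (CTR) and 4 Flk2-cre+ Cxcr4fl/fl mice (cKO), 1 library per mouse, with an age of 6 weeks in the labels, while the methods give an older range for all mice of the study. Both genotypes carried the cre transgene, which the methods place on the Y chromosome, and the controls had 1 floxed allele. Flk2-cre acts from the hematopoietic progenitor stage onward, so that the deleted cells were not the cells sequenced. The comparison asks what changes in niche cells when multipotent progenitors lack Cxcr4. The sort for GFP needs a Kitl-GFP allele, which the genotypes in the labels do not name. In the paper, such an allele brought membrane-bound stem cell factor on cKO niche cells to the wild-type level. It also brought hematopoietic stem cell numbers of cKO mice back to normal.

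Total counts were between 31047344 and 38216877 per library, and the family took 0.133% to 0.183% of them. The sorted cells carried their defining transcripts, with a summed level of the 8 MSPC markers of 52743 to 65120 CPM, the count relative to the library size after TMM scaling, in CTR and 54121 to 65826 CPM in cKO. The 15 hematopoietic markers summed to 67.3 to 227 CPM in CTR and 156 to 263 CPM in cKO, with Cd3e at 0 in every library. The 7 endothelial markers summed to at most 5.58 CPM. Sample titles carry numbers of 26 to 32 (CTR2, CTR4, cKO2, cKO4) or 67 to 86 (CTR1, CTR3, cKO1, cKO3), and the labels do not say what they stand for. Because these are bulk samples, fewer cells of a type and less RNA per cell cannot be told apart.

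MSPCs held transcripts of most of the family. Of the 50 members, 32 were detected in all 8 libraries and were tested, and 33 reached a mean of 1 CPM, 24 of 10 CPM and 5 of 100 CPM. Another 10 members had counts in some libraries, namely Abca4, Abca14, Abca15, Abcb4, Abcc2, Abcc3, Abcc6, Abcg3, Abcg5 and Abcg8, of which Abcb4 was highest at 1.76 ± 1.06 CPM (SD, n = 8). The remaining 8, Abca12, Abca13, Abca16, Abca17, Abcb5, Abcb11, Abcc8 and Abcc12, were at 0 in all 8 libraries, which at 3 counts allows up to 0.0785 to 0.0966 CPM per library for counting error only. Abcb11, the bile salt pump of hepatocytes, and Abca12, the lipid transporter of the epidermal barrier, were thus not detectable at this depth.

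To compare genes, CPM were divided by the length of their exons in kilobases. Abcf2, a cytosolic ATPase of the translation-linked subfamily, had the highest level with 31.5 ± 3.28 CPM per kilobase (SD, n = 8). Its libraries ranged from 25.8 to 35.2. Levels were also high for Abca8a at 22.3 ± 7.46, Abca9 at 19.7 ± 3.02, Abce1 at 17.1 ± 2.34, Abcg2 at 16.9 ± 3.99 and Abcc9 at 14.9 ± 3.86 CPM per kilobase. The ranges over libraries overlapped between each of these genes and the one named after it, so that such neighbors in rank are not separated. The lowest library of Abcf2 was above the highest of Abca9 (24.9), Abce1 (20.1) and Abcc9 (22.2), but not above those of Abca8a and Abcg2. Lowest among the 32 was Abca3, at 0.29 ± 0.209 CPM per kilobase. The median over the 32 members was 4.31 CPM per kilobase, beside 4.57 over all 14598 genes tested. With the longest transcript as the length Abcf2 stayed first, the next were Abce1 and then Abca8a. Against the exon length this raised 8 of the 32 members by over 1.5 times, up to 2.22 for Abcc1, and also Abcd4, Abcd3, Abcb1b, Abcc5, Abce1, Abcb8 and Abcb9, so that ranks between such genes depend on the length used.

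**Figure D1:**
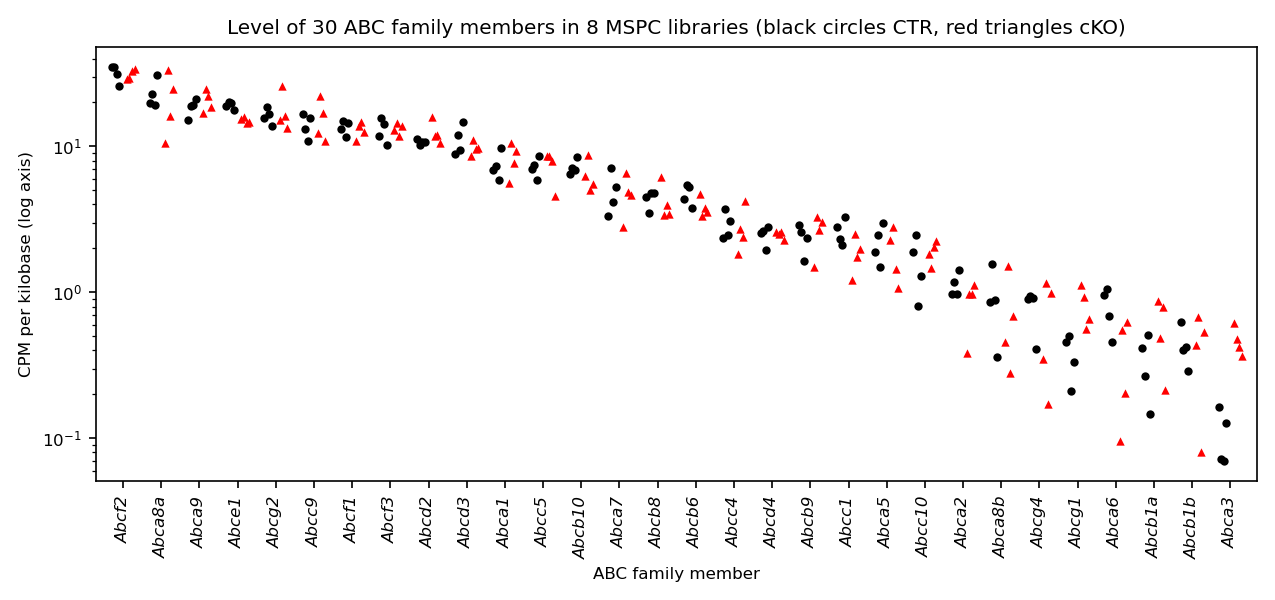
Level of 30 of the tested ABC family members in CPM per kilobase of exon on a log axis, with 4 CTR libraries (black circles) and 4 cKO libraries (red triangles) per gene, ordered by mean. Levels fell from 31.5 for Abcf2 to 0.29 for Abca3, and the genotypes did not overlap for Abce1, Abcg1 and Abca3.

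The summed level was carried by few genes. The 5 highest members held 43.9% of the family's level per kilobase and the 10 highest held 72.2%. By subfamily, A held 24.2%, F 23.5%, D 17.1%, C 11.9%, B 8.91%, G 7.49% and E, a single gene, 6.96%. Members at 10 CPM or more had a median coefficient of variation of 20.96% over the 8 libraries, and Abcd4 varied least with 10.4%. For the 8 tested members under 10 CPM it was 29.4% to 72.2%, with a median of 53.5%.

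In subfamily A, which moves lipids, the genes of 1 chromosomal cluster differed widely. Abca8b, Abca8a, Abca9, Abca6 and Abca5 follow each other on the minus strand of chromosome 11 of GRCm38, from position 109932190 to 110337716, and no other member lies among these 5. Their levels in this order were 0.827 ± 0.492, 22.3 ± 7.46, 19.7 ± 3.02, 0.58 ± 0.333 and 2.05 ± 0.686 CPM per kilobase (SD, n = 8). The lowest library of Abca8a, at 10.6, was above the highest library of Abca8b, at 1.57, and the ratio of their means was 26.9. Likewise the lowest library of Abca9, at 15.1, was above the highest of its other neighbor Abca6, at 1.05, with a ratio of 33.9. Of the 69-base windows of their exons, the longest that the trimmed reads can be, 0.746% in Abca8a and 1.16% in Abca8b recur in another gene, and none in Abca9, Abca6 or Abca5.

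The 100 bases before the RefSeq start of 4 of these genes are shown because the neighbors differ in level. They are from the RefSeq promoter table on GRCm38.p6, in which 38 of the 50 members were found, and are written 5′ to 3′ on the minus strand. Capitals mark GC boxes (GGGCGG on either strand, seen as CCGCCC on the other).
Abca8b, chr11:109995846-109995945: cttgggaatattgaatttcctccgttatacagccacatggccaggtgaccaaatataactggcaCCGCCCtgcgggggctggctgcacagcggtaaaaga
Abca8a, chr11:110095938-110096037: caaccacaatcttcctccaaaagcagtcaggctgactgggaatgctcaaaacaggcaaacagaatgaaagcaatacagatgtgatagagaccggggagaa
Abca9, chr11:110168154-110168253: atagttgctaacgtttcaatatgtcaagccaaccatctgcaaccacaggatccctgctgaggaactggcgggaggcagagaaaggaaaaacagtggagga
Abca5, chr11:110337717-110337816: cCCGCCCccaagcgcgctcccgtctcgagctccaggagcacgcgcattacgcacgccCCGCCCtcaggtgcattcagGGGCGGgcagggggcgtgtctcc
The windows of Abca8a and Abca9, the genes with high levels, held no GC box and 1 and 2 CpG dinucleotides. Abca8b held 1 GC box and 4 CpG, and Abca5 held 3 GC boxes and 12 CpG. Over all 32851 windows of this length 24.7% held a GC box and the median was 3 CpG, and among the members' 45 windows 18 held one. A match is a description of the letters and not a binding site.

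**Figure D2:**
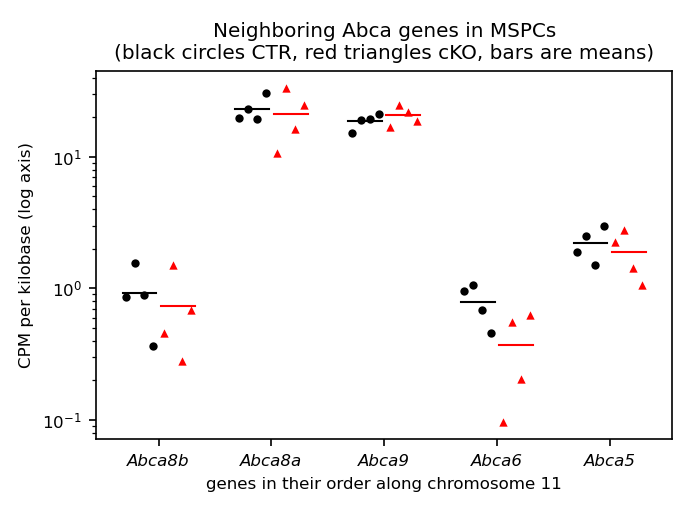
Level in CPM per kilobase of exon (log axis) of the 5 Abca genes in their order along chromosome 11, with CTR libraries as black circles, cKO libraries as red triangles and means as bars. Abca8a and Abca9 lie above 10 in all 8 libraries, and Abca8b, Abca6 and Abca5 below 3.

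Among the other lipid transporters of subfamily A, Abca1, which loads cholesterol and phospholipid onto apolipoproteins, was at 71.1, 76.2, 60.7 and 102 CPM in CTR1 to CTR4 and at 57.9, 110.1, 79.8 and 97.1 CPM in cKO1 to cKO4, and the genotypes overlapped. Its mean was 7.89 ± 1.86 CPM per kilobase (SD, n = 8). Abca7 was at 4.85, Abca5 at 2.05 and Abca2 at 1.00 CPM per kilobase. Abca4, the retinoid transporter of photoreceptors, had a mean of 0.327 CPM.

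Subfamily G was led by Abcg2, the broad drug and urate pump. It was at 127, 153, 135 and 112 CPM in CTR1 to CTR4 and at 123, 211, 131 and 109 CPM in cKO1 to cKO4, so that the genotypes overlapped. The sterol exporters Abcg1 and Abcg4 were at 0.596 ± 0.302 and 0.727 ± 0.36 CPM per kilobase. Abcg5 and Abcg8, which form the sterol pump of intestine and liver, had counts in 1 library each.

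The drug efflux pumps of subfamily B were low. Abcb1a and Abcb1b, the pair of P-glycoprotein genes of the mouse, were at 0.462 ± 0.261 and 0.434 ± 0.19 CPM per kilobase (SD, n = 8). Of their 69-base windows 18.1% and 9.61% recur elsewhere, in part in each other, so that the split of reads between them is uncertain. The mitochondrial members were higher, with Abcb10, which is needed for heme synthesis in red cell precursors, at 6.82 ± 1.30, Abcb8 at 4.33 ± 0.952 and Abcb6 at 4.28 ± 0.799 CPM per kilobase. Abcb6 shares 55.2% of its exon bases with Gm29253 on the same strand, and its value is uncertain for this reason.

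In subfamily C the highest member was Abcc9, the sulfonylurea receptor that forms potassium channels with a pore such as Kcnj8. Abcc9 was at 140, 110, 90.8 and 132 CPM in CTR1 to CTR4 and at 104, 186, 143 and 90.9 CPM in cKO1 to cKO4. Its counterpart Abcc8 was at 0 in every library. For the pore Kcnj8, CTR mice had 3.09 ± 1.41 CPM and cKO mice 1.75 ± 0.548 CPM (SD, n = 4), and the other pore Kcnj11 was at 0. Abcc9 is also a marker of pericytes. The 8 pericyte and smooth muscle markers summed to 348 to 408 CPM in CTR and 367 to 410 CPM in cKO, most of it Notch3. Of the 5 that were tested, Notch3 was above 0 and 4 had log2 fold changes below 0, namely Rgs5 at -1.20 with an unadjusted p-value of 0.0412, Acta2 at -1.0, Kcnj8 at -0.82 and Tagln at -0.16. Their part in the level of Abcc9 was not tested. Abcc5, an exporter of organic anions and cyclic nucleotides, followed at 7.35 ± 1.46 CPM per kilobase. Abcc4, which has related substrates, was at 2.85 ± 0.78, and Abcc1, which exports glutathione conjugates and leukotriene C4, at 2.25 ± 0.63 CPM per kilobase. With the longest transcript their order turned, with Abcc1 at 4.99 and Abcc4 at 3.18.

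In subfamily D, Abcd2 and Abcd3, which bring fatty acyl-CoA into peroxisomes, were at 11.6 ± 1.80 and 10.5 ± 2.03 CPM per kilobase, and Abcd4, which serves lysosomal cobalamin release, at 2.50 ± 0.259 (SD, n = 8). The 3 members of subfamily F lay at 31.5 (Abcf2), 13.3 (Abcf1) and 13.1 (Abcf3) CPM per kilobase, and their coefficients of variation, 10.4% to 13.6%, were among the smallest of the family.

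In the comparison of genotypes, 0 of the 32 members had an adjusted p-value under 0.05 by edgeR's quasi-likelihood test, as did 0% of the 14598 genes tested. The smallest adjusted p-value of a member was 0.894, for Abca3, and limma-voom also called 0 members. DESeq2's Wald and likelihood ratio tests each called 1 member, Abca3, beside 0.158% and 0.151% of all genes, as did the latter with the title range as a term, beside 0.322%. By edgeR, 4 members had an unadjusted p-value under 0.05 (12.5%, beside 4.43% of all genes), of which Abca3 and Abcg1 had higher and Abce1 and Abcc1 lower values in cKO. For 3 of the 32 (9.38%) the 4 cKO libraries were all above or all below the 4 CTR libraries, beside 2.61% of all genes.

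Abca3, which loads surfactant lipid into the lamellar bodies of lung epithelium, was a rare transcript in MSPCs. It had 48, 22, 21 and 45 counts in CTR1 to CTR4 and 191, 158, 128 and 131 counts in cKO1 to cKO4. This corresponds to 1.54, 0.672, 0.652 and 1.20 CPM in CTR and to 5.82, 4.51, 3.93 and 3.41 CPM in cKO. The groups did not overlap, and the lowest cKO library was above the highest CTR library. CTR mice averaged 1.02 ± 0.432 CPM and cKO mice 4.42 ± 1.04 CPM (SD, n = 4), a fold of 4.32 with a 95% interval of 2.36 to 7.90 (log2 fold change 2.11, standard error 0.39). Differences of mean log2 CPM were 2.05 within the titles 26 to 32 and 2.18 within the titles 67 to 86. DESeq2 gave an adjusted p-value of 0.000473 by the Wald test, 0.000793 by the likelihood ratio test and 0.000564 by the latter with the title range as a term. With edgeR and limma-voom it did not pass in any fit, with adjusted p-values from 0.576 upward.

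Part of the reads of Abca3 could belong to another gene. D330041H03Rik on the opposite strand covers 9.8% of the exon bases of Abca3, and 8.51% of the 69-base windows of Abca3 recur in other genes, D330041H03Rik among them. Whether counting used the strand is not given in the sources used here. Counts of D330041H03Rik were 30, 42, 22 and 73 in CTR1 to CTR4 and 67, 68, 51 and 90 in cKO1 to cKO4, with overlap of the genotypes. Its part in the difference of Abca3 was not tested. The 100 bases before the RefSeq start of Abca3 on the plus strand are given because this member had the largest difference in the family, with the GC box in capitals. The window held 1 GC box and 7 CpG.
Abca3, chr17:24351923-24352022: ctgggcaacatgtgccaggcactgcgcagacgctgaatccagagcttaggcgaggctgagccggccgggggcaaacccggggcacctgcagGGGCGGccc

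Abcg1, which hands cholesterol to high-density lipoprotein, was also a rare transcript with higher values in cKO. It had 103, 120, 50 and 92 counts in CTR1 to CTR4 and 269, 238, 133 and 183 counts in cKO1 to cKO4. In CPM it was at 3.31, 3.67, 1.55 and 2.45 in CTR and at 8.19, 6.79, 4.09 and 4.76 in cKO. Again the groups did not overlap, with the lowest cKO library just above the highest CTR library. The log2 fold change was 1.11 (standard error 0.37, fold 2.16, 95% interval 1.23 to 3.82), with an unadjusted p-value of 0.0126 and an adjusted p-value of 0.999 in edgeR. It was 0.91 within the titles 26 to 32 and 1.33 within 67 to 86.

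Macrophages are known to express Abcg1. Of the hematopoietic markers, Csf1r, the receptor of macrophages, was at 7.11 ± 1.88 CPM in CTR and 9.60 ± 1.57 CPM in cKO. Only 6 of the 15 markers were tested, and all 6 had fold changes above 0, none with an unadjusted p-value under 0.05. The others were not all higher in cKO. Means of Igha, Pf4, Cd79a and Itgam were lower in cKO, and those of Mpo, Elane and Ptprc higher. Igha was at 22.9 CPM in CTR and 0.289 CPM in cKO, and Mpo at 1.57 and 6.83 CPM. Ptprc, the gene of CD45, had 0 to 32 counts per library. Their part in the difference of Abcg1 was not tested.

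Abce1, which splits ribosomes after termination, had the smallest spread of the 4 relative to its level. It was at 113, 121, 119 and 107 CPM in CTR1 to CTR4 and at 92.2, 96.1, 86.2 and 87.6 CPM in cKO1 to cKO4. Every cKO library was below every CTR library. CTR mice averaged 115 ± 5.98 CPM and cKO mice 90.5 ± 4.51 CPM (SD, n = 4), a fold of 0.784 with a 95% interval of 0.686 to 0.897 (log2 fold change -0.35, standard error 0.087). Within the titles 26 to 32 the difference was -0.31, and within 67 to 86 it was -0.38. Its unadjusted p-value was 0.00233 and its adjusted p-value 0.999 in edgeR. DESeq2 gave adjusted p-values of 0.0701 by the Wald test, 0.0739 by the likelihood ratio test and 0.0974 with the title range as a term. In capitals, the window before its RefSeq start, on the minus strand, shows a CCAAT box (CCAAT on either strand, here read as ATTGG), which 18.9% of all windows and 7 of the members' 45 held. It had 11 CpG and no GC box.
Abce1, chr8:79711741-79711840: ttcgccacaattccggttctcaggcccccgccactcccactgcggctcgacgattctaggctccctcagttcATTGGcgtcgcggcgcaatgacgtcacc

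Abcc1 was at 42.0, 35.3, 32.1 and 49.3 CPM in CTR1 to CTR4 and at 18.5, 37.7, 26.5 and 29.85 CPM in cKO1 to cKO4. Here the groups overlapped, because cKO2 was above CTR2 and CTR3. The log2 fold change was -0.50 (standard error 0.22, fold 0.707, 95% interval 0.505 to 0.990), with an unadjusted p-value of 0.0448 and an adjusted p-value of 0.999 in edgeR.

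**Figure D3:**
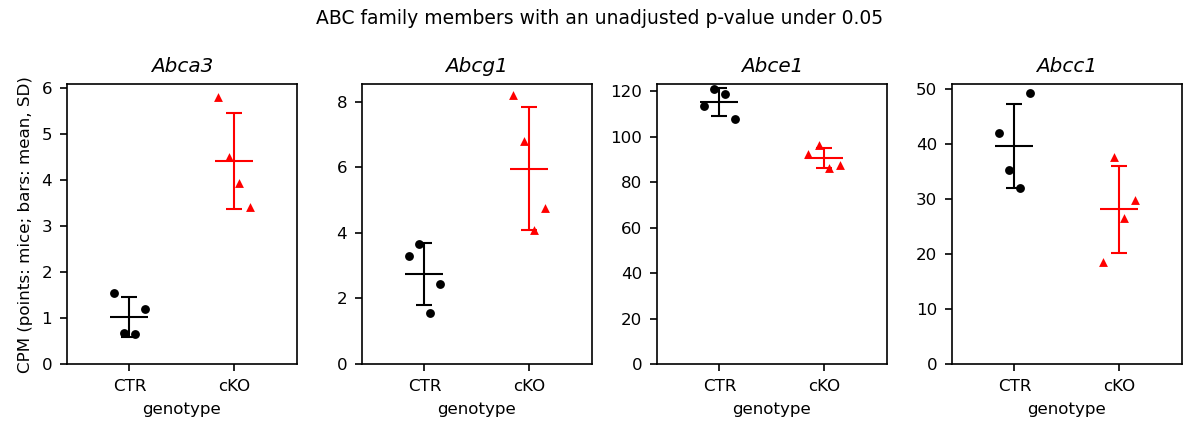
CPM of Abca3, Abcg1, Abce1 and Abcc1 in each of 4 CTR (black circles) and 4 cKO (red triangles) mice, with bars for the mean and SD, on axes that start at 0. The genotypes do not overlap for Abca3, Abcg1 and Abce1 and overlap for Abcc1.

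The other members differed little between genotypes, or varied too much to tell. Of the 32 members, 14 had a log2 fold change above 0 and 18 below, with a median of -0.023 beside -0.0013 over all genes, and 28 were within 0.5 of 0 in either direction. The median size of the log2 fold change was 0.20 in the family and 0.14 over all genes. Members at 10 CPM or more, 24 in number, were all within 0.5, and the 8 lower ones ran from -1.09 to 2.11. The family's summed level was 246 ± 18.2 CPM per kilobase in CTR and 246 ± 28.1 in cKO (SD, n = 4).

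For several abundant members the intervals bound the difference, but not for all of them equally. Abcf2 had a fold of 0.976 with a 95% interval of 0.812 to 1.17, Abca9 of 1.10 with 0.886 to 1.37, Abcg2 of 1.08 with 0.802 to 1.47 and Abca1 of 1.11 with 0.804 to 1.53. The abundant Abcc9 had 1.10 with 0.780 to 1.56, and Abca8a had 0.912 with 0.569 to 1.46, which leaves room for a large difference. Rare members had wider intervals. Abca6, of the chromosome 11 cluster, was at 5.204, 5.68, 3.69 and 2.48 CPM in CTR1 to CTR4 and at 0.518, 3.00, 1.11 and 3.38 CPM in cKO1 to cKO4. Its log2 fold change was -1.09 with a 95% interval of -2.34 to 0.15, and the lowest values were those of cKO1 and cKO3. Abcb1a was at 2.28, 1.47, 2.79 and 0.799 CPM in CTR1 to CTR4 and at 4.75, 2.65, 4.33 and 1.17 CPM in cKO1 to cKO4, with a log2 fold change of 0.81 and an interval of -0.34 to 1.97. Its difference was 0.68 within the titles 26 to 32 and 0.83 within 67 to 86.

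**Figure D4:**
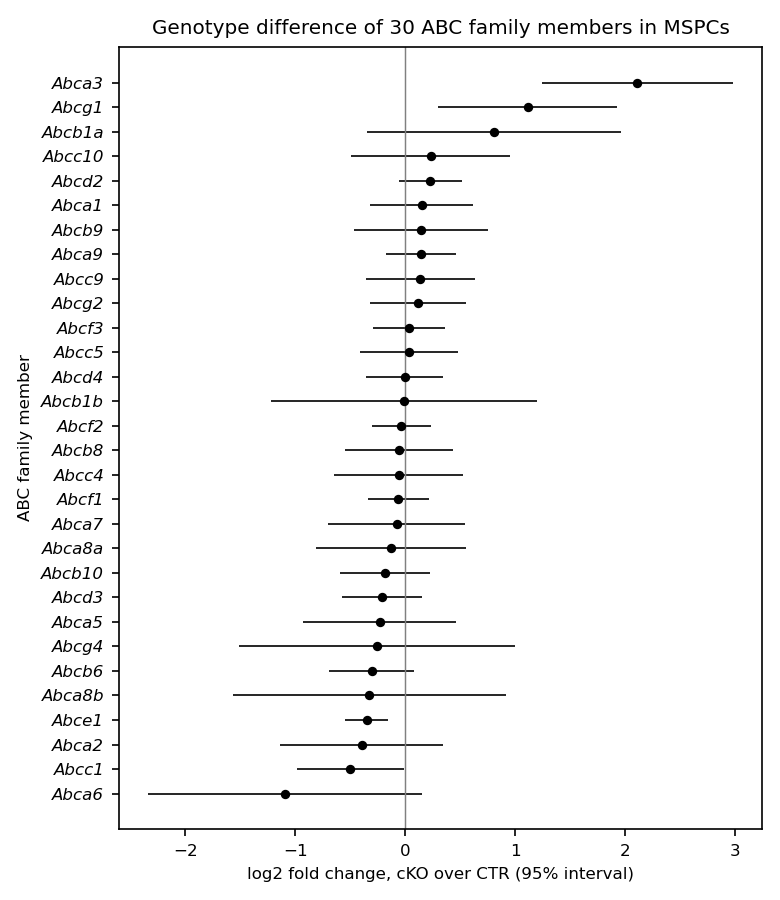
Log2 fold change, cKO over CTR, of 30 of the tested members with 95% intervals from edgeR, ordered by size. Intervals of Abca3, Abcg1, Abce1 and Abcc1 leave out 0, and the other 26 drawn include it.

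Subfamilies A to D, F and G each had members on both sides of 0. Of the 9 tested in subfamily A, 3 were above 0 and 6 below. In subfamily B 3 of 7 were above 0, in C 3 of 5, in D 2 of 4, in F 1 of 3 and in G 2 of 3. Abca1 and Abcg1, which share the sterol receptors LXR as activators, had log2 fold changes of 0.15 and 1.11. Among the 14 genes of the LXR and cholesterol list that are no members, 7 were above 0 and 7 below, with Apoe at 0.27 and Srebf1 at -0.10. Of these 14, 0 had an unadjusted p-value under 0.05 in edgeR. The genotypes did not overlap for 1 of them, Rxra at 0.33, beside 2.61% of all genes. The 10 peroxisome genes that work with subfamily D had 8 values above 0 and 2 below, and 0 with an unadjusted p-value under 0.05. For Abce1, the 7 partners in ribosome release and recycling had 5 values above 0 and 2 below, with Pelo at 0.09 and Etf1 at 0.0084, and 0 with an unadjusted p-value under 0.05. The 8 iron-sulfur and heme genes that work with the mitochondrial members had 5 above 0 and 3 below, and 0 with an unadjusted p-value under 0.05. Among the 6 tested regulators of drug and stress responses 3 were above 0, and Gclm, a subunit of the enzyme that starts glutathione synthesis, had an unadjusted p-value of 0.0303. ABC proteins under other symbols were Tap1 and Tap2, which load peptides for antigen presentation, and Cftr, which was at 0. Mean levels of Tap1 were 97.5 ± 9.0 CPM (CTR) and 128 ± 21.2 CPM (cKO), without overlap of the libraries, beside 2.61% of all genes. Its log2 fold change was 0.39, with an unadjusted p-value of 0.0122 in edgeR, and Tap2 had a log2 fold change of 0.06. None of these related genes had an adjusted p-value under 0.05 in edgeR.

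Genotype differences could also be set side by side within the ranges of title numbers, each with 2 libraries per genotype. They had the same sign in both ranges for 17 of the 32 members. Abcg4 differed by 0.77 in 26 to 32 and by -1.84 in 67 to 86, Abcb1b by 0.80 and -1.40, Abca8b by 0.43 and -1.26, and Abca6 by -0.23 and -2.44. These contrasts between ranges were not tested.

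**Figure D5:**
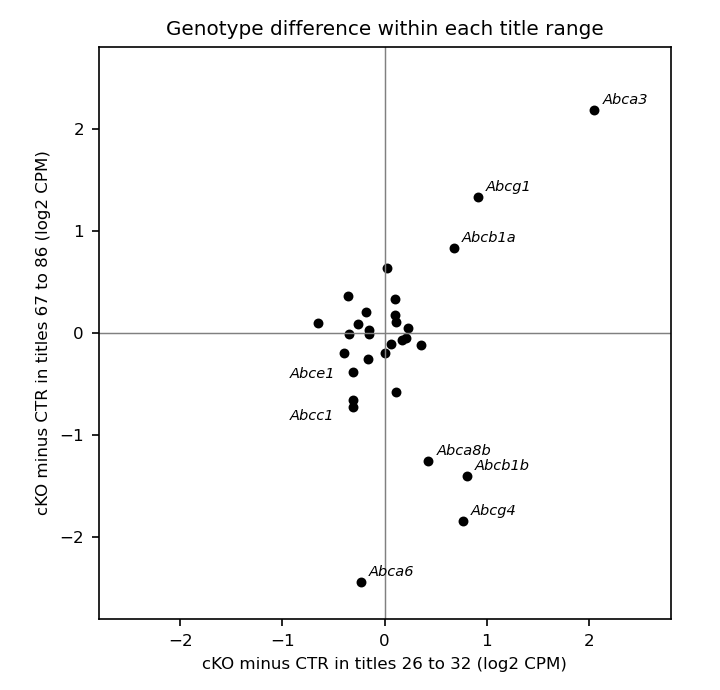
Difference of mean log2 CPM, cKO minus CTR, within the titles 26 to 32 (horizontal) and 67 to 86 (vertical), with 1 point for each of 30 tested members. Abca3, Abcg1 and Abcb1a are above 0 in both ranges, Abce1, Abcc1 and Abca6 below 0 in both, and Abcg4, Abcb1b and Abca8b change sign.

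Several members had lower values in one title range. With genotype as a term, 0 of the 32 members had an adjusted p-value under 0.05 in edgeR, beside 0.0137% of all genes, and 6 (18.75%) had an unadjusted p-value under 0.05, beside 11.6% of all genes. Of these 6, Abca8a, Abca7, Abcc4, Abca1 and Abcd3 were lower in 67 to 86 and Abcb1a was higher. In all 25 of the 32 members had a log2 fold change below 0, with a median of -0.20 beside -0.0065 over all genes, and limma-voom called 0. Abca8a was at 144, 193, 209 and 156 CPM in CTR2, CTR4, cKO2 and cKO4 and at 124, 121, 66.6 and 102 CPM in CTR1, CTR3, cKO1 and cKO3. The ranges did not overlap for this gene, and its log2 fold change was -0.78 (standard error 0.20), with an adjusted p-value of 0.208 in edgeR, 0.00932 by DESeq2's Wald test and 0.0116 by its likelihood ratio test. These DESeq2 tests called 2.6% and 2.34% of all genes, so that 1 of 32 members is near the background. Abcc4 and Abcd3 were the other members without overlap, at -0.60 and -0.37. The share of all genes without overlap of the title ranges was not counted, so these cannot be set against a background. Abca1 was at -0.51 and Abca7 at -0.64. The family's summed level was 261 ± 21.02 CPM per kilobase in 26 to 32 and 231 ± 8.54 in 67 to 86 (SD, n = 4). The summed hematopoietic markers differed by range too, with 67.3 to 162 CPM in 26 to 32 and 187 to 263 CPM in 67 to 86. Among these markers Igha was very uneven, with 0 to 2945 counts per library. Over the 4 CTR mice its SD of 45.7 CPM exceeded its mean of 22.9 CPM. Sums without Igha were not compared, so the gap between the ranges may depend on this gene. Total counts were 32188963 to 38216877 in 26 to 32 and 31047344 to 33070784 in 67 to 86. The part of the markers and of total counts in the lower level of these members was not tested.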

How the data were processed

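The 8 libraries were made from polyA RNA of sorted MSPCs. As given in the methods and the submitters' processing notes, reads were trimmed by the authors, mapped with HISAT2 to GRCm38 (mm10) and counted with HTSeq. The deposited values are raw counts per gene without normalization. Ensembl identifiers, with the version dropped, gave a symbol for 52403 of 52636 genes and none for 233. Coordinates and exon lengths are from GENCODE M21.

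Libraries were scaled by TMM. The 14598 genes whose count exceeded 0 in all 8 libraries entered edgeR 4.0.16 (quasi-likelihood, Benjamini-Hochberg, threshold 0.05) in R 4.3.3 over all 8 libraries, once for genotype and once for title range with genotype as a term. Alternatives were RLE and totals-only scaling, other filters, DESeq2 1.42.0, limma-voom (limma 3.58.1), the title range and the replicate number as terms, and leaving out each library. Scripts were tested on simulated data. P-values measure the spread between mice. Intervals of folds are from edgeR and carry that spread, and the limit for a count of 0 covers counting error only.

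Members and lists were chosen with earlier results of these data known. Named by rule were members with an unadjusted genotype p-value under 0.05 and members whose genotypes do not overlap. The highest of each subfamily and a list of drug, sterol and mitochondrial transporters were also named. Values in all libraries are given for Abca1, Abca3, Abca6, Abca8a, Abcb1a, Abcc1, Abcc9, Abce1, Abcg1 and Abcg2. Other members are given by means, ranges or fold changes. Abca2, Abca4, Abca5, Abca7, Abcd4 and members at or near 0 were named after their values were seen. Some items are not reported here.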

Additional observations from a re-analysis of the deposited data

Results flagged for a closer look

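Each genotype's 4 libraries were examined for 1 library apart from the rest in the 26 named members tested, which makes 52 groups, of which chance gives about 2.6. There were 2 such groups. For Abcc5 in cKO, replicate 4 was at 48.9 CPM and the next lowest at 85.4 CPM, so that the gap was 0.848 of the whole range. For Abcg4 in CTR, replicate 4 was at 2.13 CPM and the next lowest at 4.69 CPM, so that the gap was 0.928 of the whole range.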

How the results depend on the processing

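The count of members called between genotypes was 0 in edgeR and limma-voom in the alternatives run, and 1 (Abca3) in DESeq2's Wald test, its likelihood ratio test and the latter with the title range as a term. These called 23, 22 and 47 of all 14598 genes. For the title range DESeq2's Wald and likelihood ratio tests called 1 member (Abca8a), with 380 and 342 of all genes, and edgeR and limma-voom 0. The deviations of same-numbered libraries correlated by 0.057 to 0.18, with 2 of 4 above 0.1, and 7 of the 8 libraries correlated best with their own number, a hint from the data that the labels do not explain. Same-numbered libraries also share a title range, and the numbers were not taken as pairs. With the replicate block edgeR called 0 members. Leaving out 1 library gave 3 to 5 members without overlap of the genotypes. The count of 5 arose when cKO replicate 2 was dropped, and 5.85% of all genes then did not overlap. Where the count was 3 or 4, this share of all genes was 4.62% to 5.50%. It was 2.61% with all 8 libraries. Of 26 named members tested, 14 kept their direction in all 18 alternatives. The other 12 turned sign when 1 library was left out, with log2 fold changes of -0.43 to 0.084 for Abca8a, -0.95 to 0.056 for Abca8b, -0.32 to 0.33 for Abcb1b, -0.30 to 0.037 for Abcb8, -0.32 to 0.092 for Abcc4, -0.062 to 0.21 for Abcc5, -0.080 to 0.28 for Abcc9, -0.14 to 0.0042 for Abcf1, -0.13 to 0.018 for Abcf2, -0.067 to 0.13 for Abcf3, -0.13 to 0.23 for Abcg2 and -0.65 to 0.063 for Abcg4. Abcc5 was also at -0.013 in limma-voom. Abca3 ranged from 1.94 to 2.38, Abcg1 from 0.91 to 1.28 and Abce1 from -0.38 to -0.33. The cause of these changes was not tested. At this depth a member at 0 could still hold up to 3 counts per library.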
